A study of Mus musculus with 7 samples.

Results

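The 45 genes described here are mouse imprinted genes that lie outside the Prader-Willi and Kcnq1 domains of chromosome 7. They were chosen by symbol, with earlier results of these data known and with no filter on their level, and all 45 were found among the 27179 genes counted. They fall into 21 clusters or single genes. By the parental copy that is usually expressed, 23 are paternal, 16 are maternal and 6 are mixed, that is, tissue-dependent, transcribed differently from either copy or unsettled. RNA-seq was used to compare cultured lines of end-stage lymphomas from male C57BL/6 mice, all of which carried the Eµ-Myc transgene, in which an immunoglobulin enhancer drives Myc in B lineage cells. The wild-type group held 3 lines with intact Smchd1. The Smchd1 null group held 4 lines, which the methods of the study describe as homozygous for the Smchd1 allele MD1. The age of the mice was not given, and the labels do not tie a line to its mouse, so that p-values measure the spread between these samples. Wild-type replicate 1 was the only library of batch 1 and of single-end reads, and the other 6 libraries formed batch 2 with paired-end reads.

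An imprinted gene is expressed mainly from the copy inherited from 1 parent. The choice is set by DNA methylation placed at CpG sites of control regions in the egg or sperm, and it is kept in body cells by factors such as Zfp57 and Trim28, which recruit silencing proteins to the methylated copy. Many imprinted clusters hold a long noncoding RNA that is transcribed from the copy on which the neighbouring genes are silent, as Airn is beside Igf2r. Several outer genes of the clusters are imprinted only in placenta or brain. Smchd1 encodes a chromatin protein of the SMC family that takes part in silencing on the inactive X chromosome and at some imprinted clusters. The comparison asked how these genes were expressed in lymphoma lines with and without Smchd1. Counts per gene in 1 inbred strain do not show which parental copy was transcribed.

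Promoter windows of the called genes are shown with their CpG sites, the sites at which DNA methylation is placed. No methylation was measured, and these windows were not shown to be imprint control regions. RefSeq (GRCm38.p6) gave windows from 250 bases before to 50 bases after a start site for 35 of the 45 genes, and for Begain and Pon2 among the 3 genes called below. Begain is transcribed from the minus strand of chromosome 12 and has start sites in an outer and an inner group, of which 1 window each is given. Capitals mark CpG sites.
Begain, outer start, chr12:109068193-109068492, minus strand: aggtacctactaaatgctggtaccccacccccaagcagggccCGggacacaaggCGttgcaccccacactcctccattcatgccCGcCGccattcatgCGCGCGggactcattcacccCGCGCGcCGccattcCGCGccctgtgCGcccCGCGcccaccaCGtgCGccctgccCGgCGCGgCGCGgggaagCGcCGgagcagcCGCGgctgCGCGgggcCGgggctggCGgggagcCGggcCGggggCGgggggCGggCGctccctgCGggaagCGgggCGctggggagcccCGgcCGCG
Begain, inner start, chr12:109053707-109054006, minus strand: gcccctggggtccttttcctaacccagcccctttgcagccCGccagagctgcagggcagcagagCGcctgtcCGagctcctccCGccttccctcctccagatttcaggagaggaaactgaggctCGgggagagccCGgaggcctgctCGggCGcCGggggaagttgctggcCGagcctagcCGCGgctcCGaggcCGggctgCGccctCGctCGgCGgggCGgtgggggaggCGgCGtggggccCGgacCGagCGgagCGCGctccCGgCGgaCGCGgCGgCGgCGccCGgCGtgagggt
Pon2, chr6:5298291-5298590, minus strand: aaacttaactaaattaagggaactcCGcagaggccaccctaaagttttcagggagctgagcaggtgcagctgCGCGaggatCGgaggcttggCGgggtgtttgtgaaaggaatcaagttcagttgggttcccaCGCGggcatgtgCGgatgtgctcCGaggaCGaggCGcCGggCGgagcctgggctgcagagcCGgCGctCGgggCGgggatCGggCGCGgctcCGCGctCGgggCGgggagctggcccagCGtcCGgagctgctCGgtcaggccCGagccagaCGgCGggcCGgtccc

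The outer and inner Begain windows held 42 and 35 CpG sites, and the Pon2 window held 31. The median was 19.5 over the 26 windows of the 16 genes that were tested and have a window, and 21 over the 11814 windows of all genes tested. These 3 windows were therefore denser in CpG than the median window of a tested gene. The letters TGCCGC, the core of the motif read by Zfp57, were searched on both strands. They were in 14 of 59 windows of imprinted genes (23.7%) and in 11.6% of all 32851 windows. Among genes tested, they were in 6 of 26 windows of imprinted genes (23.1%) and in 19.3% of all windows. The letters hold a CpG site, and the median window had 17 CpG sites over imprinted genes against 7 over all genes. None of the windows of Begain or Pon2 held the letters TGCCGC, which says only that these letters are not in these 300 bases.

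Many of the imprinted genes were low or not detected in the lymphoma lines, as were many of all genes counted. A gene was tested when it reached at least 0.5 CPM (its count per 1000000 counts of the library) in 3 or more libraries. This filter was passed by 12303 of all 27179 genes and by 20 of the 45. Over all 27179 genes, 10297 had 0 counts in every library. Of the 45, another 13 had counts but did not pass. The remaining 12 of the 45 had 0 counts in all 7 libraries. They were the cation transporter Slc22a3, Rtl1 and the deiodinase Dio3 of the Dlk1-Dio3 cluster, Zim1 and Usp29 beside Peg3, the actin nucleator Cobl, the calcitonin receptor Calcr, Klf14, the potassium channel Kcnk9, Zdbf2, the amino acid transporter Slc38a4 and the cadherin Cdh15. A count of 0 allows up to 3 counts, which is between 0.399 CPM in Smchd1 null replicate 4 and 0.827 CPM in wild-type replicate 1. Intervals and floors of this kind cover counting error only. The map of levels shows the 33 genes with at least 1 count.

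**Figure D1:**
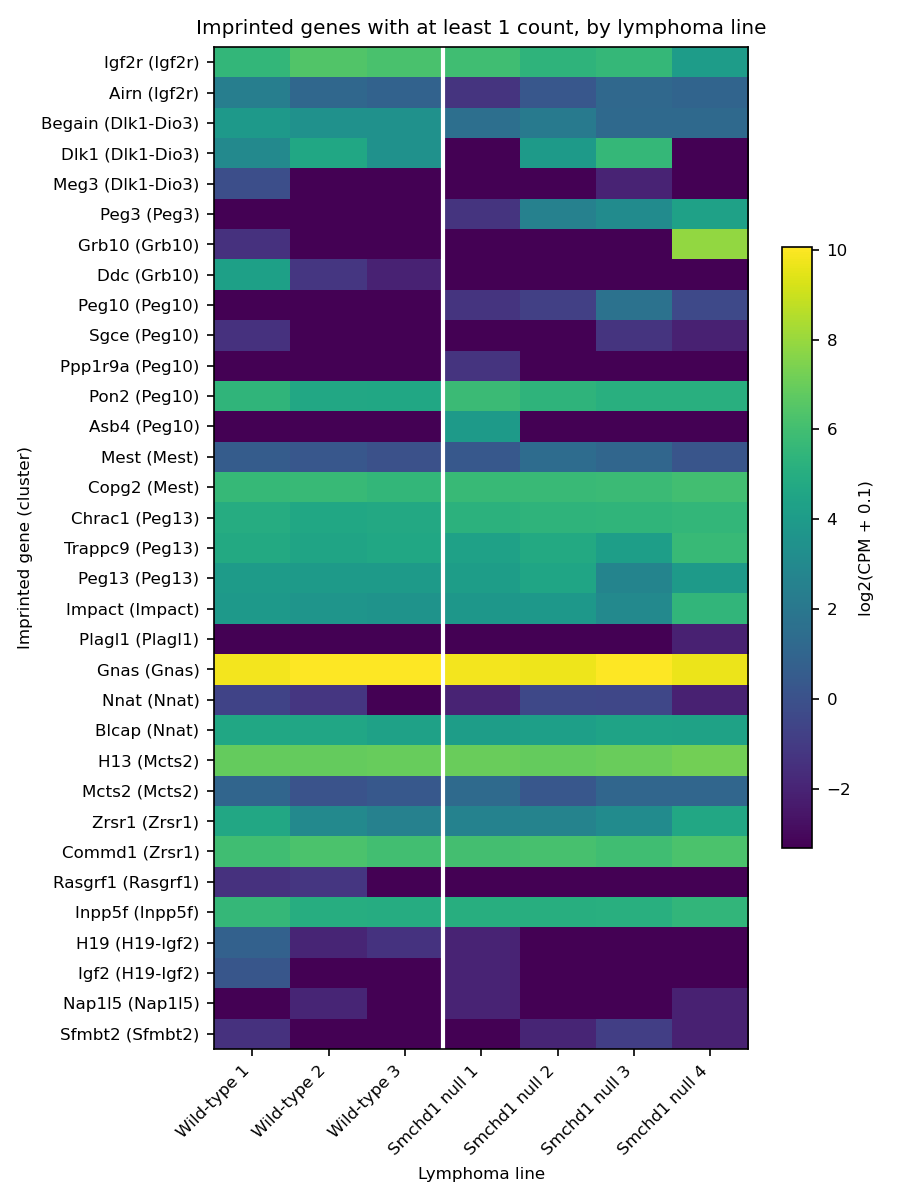
Level of the 33 imprinted genes with at least 1 count, as log2(CPM + 0.1), by gene and cluster (rows) and lymphoma line (columns, with a white line between the 3 wild-type and the 4 Smchd1 null lines). Gnas is bright in every line, while Grb10 is bright in Smchd1 null replicate 4 and Asb4 stands out in Smchd1 null replicate 1.

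The libraries held 3626853 to 7519549 counts, with wild-type replicate 1 the shallowest. Smchd1, the targeted gene, had 900, 1404 and 1492 counts in wild-type lines and 175, 141, 185 and 216 in Smchd1 null lines, with a log2 fold change of -3.16 (SE 0.11, limma FDR 2.18e-05). Wild-type replicates 2 and 3 were far closer to each other than other lines of a group, with a correlation of log2 CPM across genes of 0.990 against 0.874 to 0.955, although they differed by more than sampling noise. Of the 8 B cell markers listed, Cd79a was called as higher (limma FDR 0.0445) and Ebf1 as lower (limma FDR 0.0494). Cd79a was at 181 to 231 CPM in wild-type lines and 409 to 444 CPM in Smchd1 null replicates 1 to 3. In Smchd1 null replicate 4 it was lowest of all, at 100.4 CPM. Ms4a1 reached at most 12.8 CPM, and Blk ranged from 0.164 CPM in wild-type replicate 2 to 44.8 CPM in Smchd1 null replicate 4. Cd79b and Pax5 were expressed in all 7 lines. Pax5, however, was at 16.6 CPM in Smchd1 null replicate 4 against 51.3 to 84.9 CPM in the other 6. Cd22 was at 25.4 CPM in Smchd1 null replicate 4 against 180 to 341 CPM in the other 6. The 6 T cell markers summed to at most 0.532 CPM in any line. Fibroblast markers summed to 10.2 CPM in wild-type replicate 1 and to at most 0.266 CPM elsewhere, with Pdgfra, Dcn and Lum at 0 in every line. Results that touch these libraries are given below with their values, and the part of the libraries in them was not tested.

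Of the 20 imprinted genes tested, 3 changed. Begain fell, and Chrac1 and Pon2 rose. Linear models with voom and sample weights (limma) called 11.9% of all 12303 genes at a false discovery rate (FDR) under 0.05, 5.06% higher and 6.85% lower in Smchd1 null lines, so that 3 calls among 20 genes lie near that background. The signs were mixed, with 12 genes above 0 and 8 below. The median log2 fold change was 0.06 over the 20 genes and -0.01 over all genes tested. Among paternally expressed genes 10 of 23 were tested and 1 fell. Among maternally expressed genes 6 of 16 were tested and 2 rose, and of 6 mixed genes 4 were tested and none was called. The medians of these groups were 0.11, 0.09 and -0.08. Of the 17 genes without a call, 10 had a 95% interval that lay wholly within 1 log2 unit of no change, as the plot of fold changes shows. These intervals rest on the sample weights and count wild-type replicates 2 and 3 as separate lines. With the counts of these lines summed, the SE of Igf2r, 1 of the 17, was 0.49 against 0.24.

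**Figure D2:**
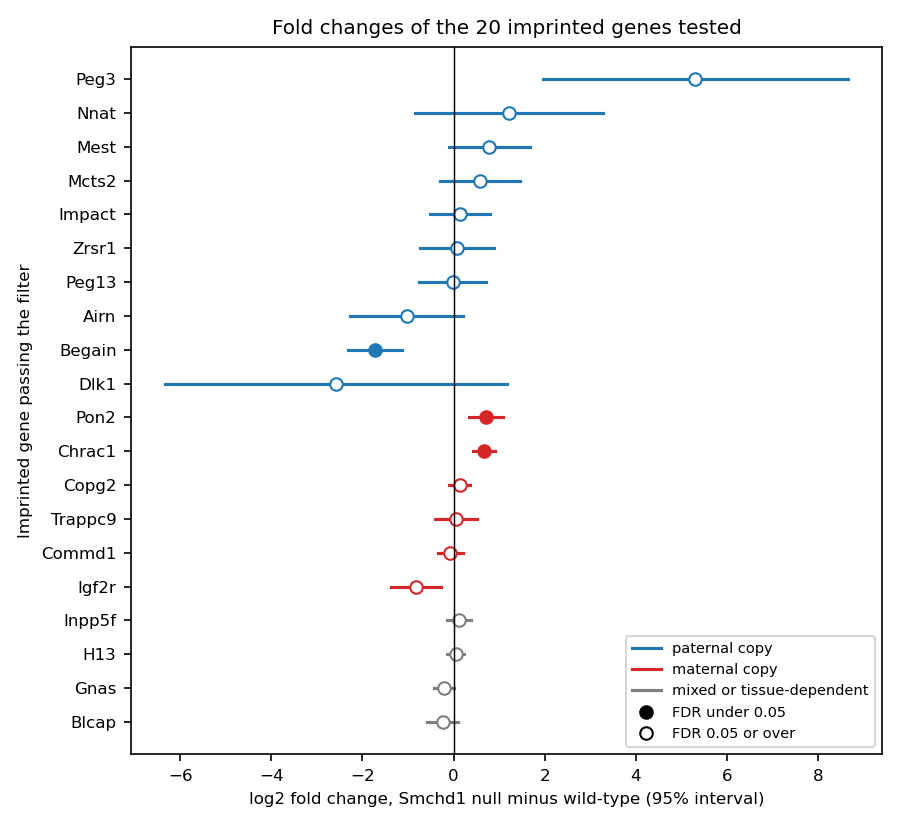
Fitted log2 fold change, Smchd1 null minus wild-type, of the 20 imprinted genes that passed the filter (points) with its 95% interval (lines), coloured by the parental copy usually expressed, filled where the limma FDR was under 0.05. Begain lies wholly below 0 at -1.72, Chrac1 and Pon2 lie above 0 at 0.67 and 0.71, and the intervals of Peg3, Dlk1 and Nnat are wide.

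The calls depended on the weighting and on wild-type replicates 2 and 3. These lines received the largest weights, 3.78 and 3.06, against 0.246 for wild-type replicate 1 and 0.249 for Smchd1 null replicate 4. When wild-type replicate 2 or replicate 3 was left out, none of the 20 genes passed, with 1 gene called of 12303 in either case and 2 of the imprinted genes at an unadjusted p under 0.05. The labels do not say whether these closely alike lines came from separate tumours, and if they did not, the wild-type group held 2 independent lines rather than 3. With their counts summed into 1 sample, 1 gene of 12303 and none of the 20 passed, and the log2 fold changes were -1.81 for Begain (limma FDR 0.481), 0.60 for Chrac1 (limma FDR 0.692) and 0.49 for Pon2 (limma FDR 0.893). Without sample weights, voom alone and the quasi-likelihood test of edgeR each called 0.0975% of all genes and 0 of the 20, with 2 and 3 of them at an unadjusted p under 0.05. DESeq2 called 3.10% of all genes and, of the 20, Begain, Chrac1 and Peg3.

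Begain (Entrez 380785, chromosome 12, 109032181 to 109068242) lies at the outer end of the Dlk1-Dio3 cluster, is paternally expressed and encodes a protein that binds the synaptic guanylate kinase scaffold. Its level was 14.3, 10.7 and 10.7 CPM in wild-type replicates 1 to 3 and 2.81, 4.50, 2.32 and 2.26 CPM in Smchd1 null replicates 1 to 4. Every Smchd1 null line was below every wild-type line. The means were 11.9 CPM ± 2.11 (SD, n = 3) and 2.97 CPM ± 1.05 (SD, n = 4), a ratio of 0.250. The log2 fold change was -1.72 (SE 0.26, limma FDR 0.0114) and -1.71 within batch 2 (limma FDR 0.0133), where 13.7% of genes were called. Within batch 2, here and below, the wild-type group held only replicates 2 and 3, the closely alike lines. Begain had the smallest FDR of the imprinted genes in the main test, and its FDR was 0.000187 in DESeq2, 0.0903 with voom alone and 0.140 in edgeR. Without wild-type replicate 2 and replicate 3 in turn, its log2 fold change was -1.86 in both cases, with limma FDRs of 0.588 and 0.552. In cultures measured in bulk, fewer cells that express a gene and less RNA per cell cannot be told apart.

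Wdr25, which is annotated 3.73 kb from the nearest end of Begain, also fell, with a log2 fold change of -1.03 (SE 0.27, limma FDR 0.0440). It stood at 8.04 to 10.3 CPM in wild-type lines, at 3.55 to 4.34 CPM in Smchd1 null replicates 1 to 3 and at 10.8 CPM in Smchd1 null replicate 4, so that the groups overlapped. It was the 1 gene called among 13 tested neighbours, that is, genes within 0.5 Mb of the cluster that are not imprinted genes of the list. The median log2 fold change of the 444 tested genes of chromosome 12 was -0.28. Chromosome 12 genes were above their level in the other lines by a median of 0.34 log2 units in wild-type replicate 2 and 0.13 in wild-type replicate 3. The part of this shift in the fall of Begain was not tested.

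The other genes of the Dlk1-Dio3 cluster did not share the pattern of Begain. Dlk1, a ligand-like membrane protein that modulates Notch signalling, was at 7.72, 24.9 and 10.8 CPM in wild-type replicates 1 to 3 and at 0, 15.6, 47.7 and 0 CPM in Smchd1 null replicates 1 to 4. The highest level and both levels of 0 were thus in Smchd1 null lines, and the gene was not called (limma FDR 0.316). Meg3, the maternally expressed noncoding RNA of the cluster, had 3 counts in wild-type replicate 1, 1 in Smchd1 null replicate 3 and 0 elsewhere. No line therefore showed the maternal noncoding RNA above 3 counts, whether or not it expressed Dlk1.

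Chrac1 (Entrez 93696, chromosome 15, 73090412 to 73094075) encodes a histone-fold subunit of the CHRAC remodelling complex and belongs to the Peg13 cluster, where it is maternally expressed in some tissues. Its level was 30.9, 24.6 and 26.4 CPM in wild-type replicates 1 to 3 and 38.1, 41.0, 42.3 and 45.6 CPM in Smchd1 null replicates 1 to 4. Every Smchd1 null line was above every wild-type line. The means were 27.3 CPM ± 3.24 (SD, n = 3) and 41.7 CPM ± 3.14 (SD, n = 4), a ratio of 1.53. The log2 fold change was 0.67 (SE 0.10, limma FDR 0.0118) and 0.67 within batch 2 (limma FDR 0.0131). The FDR was 0.00874 in DESeq2, 0.178 with voom alone and 0.214 in edgeR. Without wild-type replicate 2 it was 0.802 and without wild-type replicate 3 it was 0.755 (limma).

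The genes of chromosome 15 as a whole were higher in Smchd1 null replicate 4 than in the other lines, by a median of 0.50 log2 units over 366 genes. Without that line the log2 fold change of Chrac1 was 0.66 (limma FDR 0.0188), with 11.2% of genes called. The other members of the cluster were not called. Trappc9, a subunit of a vesicle tethering complex, was highest in Smchd1 null replicate 4, at 52.1 CPM, and stood at 18.2 to 27.9 CPM elsewhere. Peg13, the paternal noncoding RNA inside an intron of Trappc9, was at 15.7 to 16.3 CPM in wild-type lines whereas Smchd1 null lines spread from 6.49 CPM (replicate 3) to 23.0 CPM (replicate 2). The level of Peg13 per kilobase was 47.3% to 137% of that of Trappc9, lowest in Smchd1 null replicate 4. None of the 6 tested neighbours of the cluster was called.

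Pon2 (Entrez 330260, chromosome 6, 5264620 to 5298345) encodes a membrane lactonase with antioxidant activity and lies among the maternally expressed genes of the Peg10 cluster. Its level was 42.7, 26.2 and 24.9 CPM in wild-type replicates 1 to 3 and 54.5, 41.3, 34.8 and 34.4 CPM in Smchd1 null replicates 1 to 4. Wild-type replicate 1, the line of batch 1 with a low weight, lay within the range of the Smchd1 null lines. The means were 31.3 CPM ± 9.93 (SD, n = 3) and 41.2 CPM ± 9.38 (SD, n = 4), a ratio of 1.32. The log2 fold change was 0.71 (SE 0.16, limma FDR 0.0315) and 0.73 within batch 2 (limma FDR 0.0309). It was called by neither voom alone, edgeR nor DESeq2, with log2 fold changes of 0.47, 0.42 and 0.42 and FDRs of 0.540, 0.596 and 0.622, and the limma FDR was 0.0985 without Smchd1 null replicate 1 and 0.119 without replicate 2. Without wild-type replicate 2 the log2 fold change was 0.46 (limma FDR 0.935) and without wild-type replicate 3 it was 0.41 (limma FDR 0.888).

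The remaining genes of the Peg10 cluster were low or restricted to single lines. Asb4, a maternally expressed ubiquitin ligase adaptor, had 104 counts (15.4 CPM) in Smchd1 null replicate 1 and 0 in the other 6 libraries. Its neighbour Ppp1r9a had 2 counts, both in the same line, which was also the line with the highest level of Pon2. Peg10, a paternally expressed gene derived from a retrotransposon, had 0 counts in the 3 wild-type libraries and 2, 3, 21 and 5 counts in the Smchd1 null libraries, or 0.296, 0.482, 3.24 and 0.665 CPM. It did not pass the filter. With no filter, where 8.65% of 16882 genes were called, Peg10 was called as higher. Its counts were in Smchd1 null lines only, so that its sign was fixed and the call is a description. Pooled over the Smchd1 null group, the level of Peg10 was 6.34-fold the limit of 3 counts over the wild-type group. Without Smchd1 null replicate 3 it was 2.69-fold that limit. Both folds take the Smchd1 null counts as exact, and Smchd1 null replicates 1 and 2 had at most 3 counts. Sgce, which shares a promoter region with Peg10, had at most 2 counts in any library. Among 8 tested neighbours, Hepacam2 rose with a log2 fold change of 0.46 (limma FDR 0.0269) and Gmfg-ps, a pseudogene inside the cluster, with 1.29 (limma FDR 0.0142). Reads of Gmfg-ps may be shared with its parent gene.

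**Figure D3:**
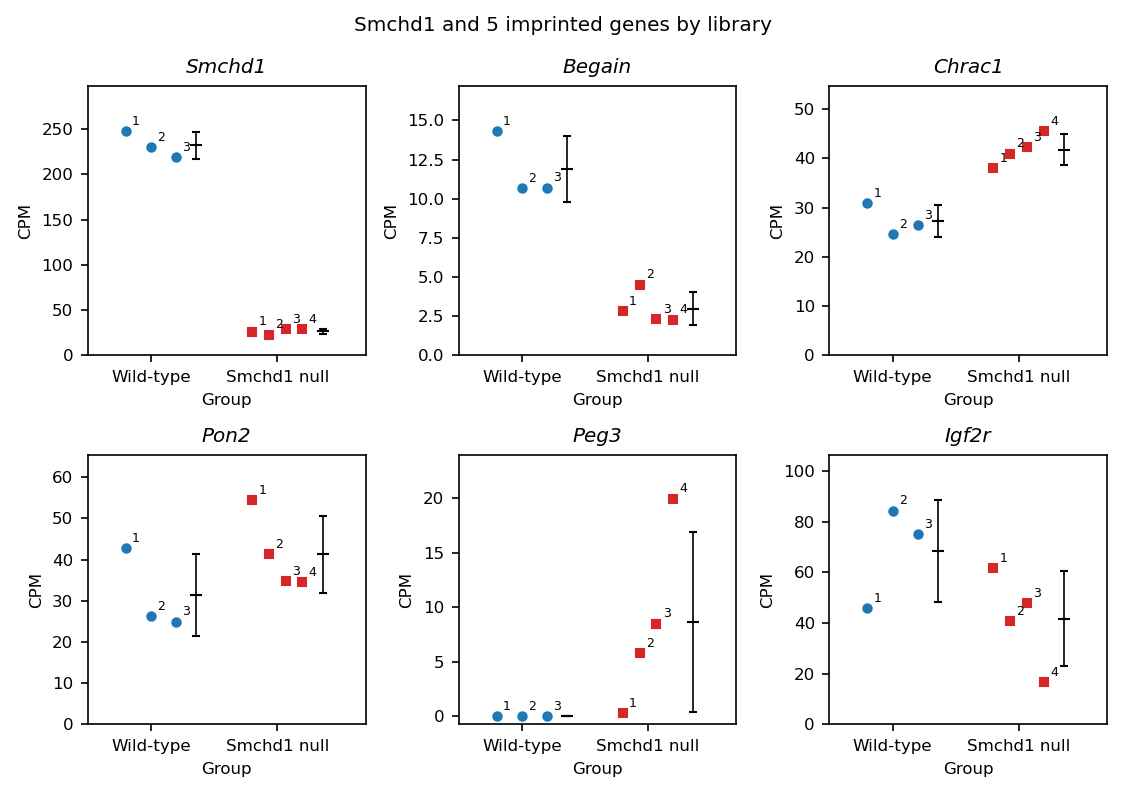
CPM of Smchd1 and of 5 imprinted genes in each library (points numbered by replicate, wild-type as circles, Smchd1 null as squares), with the mean and SD beside each group. The groups do not overlap for Smchd1, Begain, Chrac1 and Peg3, wild-type replicate 1 lies among the Smchd1 null lines for Pon2, and Peg3 is at 0 in every wild-type line.

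Peg3 (Entrez 18616, chromosome 7), a paternally expressed zinc finger gene, was detected only in Smchd1 null lines. It had 0 counts in all 3 wild-type libraries and 2, 36, 55 and 150 counts in Smchd1 null replicates 1 to 4, or 0.296, 5.78, 8.49 and 19.9 CPM. The level in Smchd1 null replicate 1 was under 3 counts, which is the most that the counts of 0 allow in each wild-type library. Pooled over the Smchd1 null group, Peg3 was 49.7-fold the limit of 3 counts over the wild-type group. Without Smchd1 null replicate 4, Peg3 was 26.4-fold that limit, with the Smchd1 null counts taken as exact in both cases. It narrowly missed the threshold in the main test (fitted log2 fold change 5.30, SE 1.46, limma FDR 0.0516), where the fitted value depends on the offset given to a count of 0. Peg3 passed the filter only through Smchd1 null replicates 2 to 4, the group in which it was high, so that a tested Peg3 had to differ and its FDRs are a description. They were 0.000499 in DESeq2, 0.254 in edgeR, 0.452 with voom alone, 0.00573 in limma without Smchd1 null replicate 1 and 0.935 in limma without wild-type replicate 2. Begain, Chrac1 and Peg3 were the 3 tested imprinted genes whose groups did not overlap. Over all genes tested, 6.35% had every Smchd1 null line above every wild-type line and 6.85% had every one below.

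The neighbours of Peg3 showed no shared pattern. Zim1 and Usp29, the other imprinted genes of the cluster in the list, had no count in any line that expressed Peg3. Of 10 tested neighbours Zfp78 was called, with a log2 fold change of 2.18 (SE 0.54, limma FDR 0.0378). Its level was low, at 3.03, 0.492 and 0.147 CPM in wild-type replicates 1 to 3 and 1.48 to 2.79 CPM in Smchd1 null lines, so that wild-type replicate 1 was the highest of all.

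Igf2r, the maternally expressed mannose 6-phosphate receptor that clears Igf2, is given with its fold change although it did not pass, which was decided after its values were seen. It was at 45.8, 84.5 and 75.3 CPM in wild-type replicates 1 to 3 and 61.6, 40.8, 47.9 and 16.6 CPM in Smchd1 null replicates 1 to 4. Wild-type replicates 2 and 3 were the highest lines, and wild-type replicate 1 lay among the Smchd1 null lines. The log2 fold change was -0.82 (SE 0.24, limma FDR 0.0610), and without Smchd1 null replicate 4 it was -0.72 (limma FDR 0.0484). Without wild-type replicate 2 it was -0.41 (limma FDR 0.967) and without wild-type replicate 3 it was -0.49 (limma FDR 0.925). Airn, the paternal noncoding RNA that overlaps Igf2r, was lower, at 0.296 to 5.24 CPM, and was not called (limma FDR 0.227). Per kilobase Airn stood at 1.96% to 46.7% of Igf2r, with the lowest share in Smchd1 null replicate 1. The library kit does not mark strand, so that reads from the overlap of Airn with Igf2r cannot be assigned to either by strand. Of 9 tested neighbours, Tcp1, a chaperonin subunit, rose with a log2 fold change of 0.30 (limma FDR 0.0445) and Acat2, a thiolase, with 0.71 (limma FDR 0.0325).

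Of the 7 imprinted genes with the highest levels, all but Chrac1 and Pon2 did not pass the test. On a per-length scale, RPKM, in which CPM is divided by gene length in kilobases, Gnas led with a mean of 156 RPKM, followed by Commd1 at 83.7, Chrac1 at 41.8, Pon2, Copg2 at 17.0, H13 at 12.7 and Blcap at 10.2 RPKM. The ranges over the 7 lines of Gnas (135 to 175 RPKM), Commd1 (74.6 to 94.0 RPKM) and Chrac1 (28.9 to 53.6 RPKM) did not overlap, whereas those of Pon2 (13.5 to 29.5 RPKM) and Copg2 (14.8 to 20.7 RPKM) did. Gnas encodes the stimulatory G protein alpha subunit and has several promoters with different imprints, which gene-level counts merge. It was at 900, 1035 and 1061 CPM in wild-type lines and 896, 852, 1050 and 819 CPM in Smchd1 null lines. Commd1, a copper and NF-kappaB regulator, was at 61.5, 76.9 and 65.1 CPM in wild-type lines and 67.2, 70.7, 61.0 and 76.6 CPM in Smchd1 null lines. For both genes the lines of the groups were interleaved.

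Copg2, a subunit of the COPI coat that lies tail to tail with Mest, was at 49.9, 51.5 and 46.2 CPM in wild-type lines and 50.6, 53.3, 56.1 and 64.8 CPM in Smchd1 null lines. Mest itself, the paternally expressed hydrolase of that cluster, was at 0.879 to 2.57 CPM and stood at 1.85% to 5.43% of Copg2 per kilobase. H13, the signal peptide peptidase, was at 120, 120 and 121 CPM in wild-type lines and 126, 119, 129 and 148 CPM in Smchd1 null lines. The retrogene Mcts2 lies wholly inside H13, and it was at 0.984 to 2.37 CPM, or 10.2% to 23.4% of H13 per kilobase. Blcap, a small conserved membrane protein, was at 25.1, 24.4 and 19.9 CPM in wild-type lines and 17.6, 18.3, 21.5 and 21.0 CPM in Smchd1 null lines. Its nested paternal gene Nnat had at most 4 counts in any library, at or just above the limit of 3 counts. Inpp5f, an inositol phosphatase, was at 47.7, 31.7 and 30.8 CPM in wild-type lines and 32.9, 33.2, 35.1 and 44.2 CPM in Smchd1 null lines. None of these host and nested genes was called, and levels of nested genes without strand may include reads of the host.

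Several imprinted genes set single lines apart, regardless of the Smchd1 group. Grb10, an adaptor that restrains insulin receptor signalling, had 1749 counts (232.6 CPM) in Smchd1 null replicate 4, 1 count in wild-type replicate 1 and 0 in the other 5 libraries. It did not pass the filter because 1 library alone exceeded it. Smchd1 null replicate 4 is also the line with the lowest level of Cd22. Impact, an inhibitor of the Gcn2 kinase pathway, was at 14.9, 12.3 and 11.4 CPM in wild-type lines and 13.2, 13.8, 7.88 and 44.2 CPM in Smchd1 null lines, with the last value again in replicate 4. Genes of chromosome 18, which holds Impact, were above the other lines by a median of 0.37 log2 units in that replicate and 0.44 in replicate 3, where Impact was lowest.

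Zrsr1, a paternally expressed splicing factor gene that lies wholly inside Commd1, was at 25.6 CPM in wild-type replicate 1 and 25.4 CPM in Smchd1 null replicate 4, against 5.72 to 8.80 CPM in the other 5 lines. The 2 high lines belong to different groups. Zrsr1 reached 7.59% and 6.04% of Commd1 per kilobase in these lines, and 1.60% to 2.63% in the rest, while Commd1 itself was at 61.5 and 76.6 CPM there. Ddc, the paternally expressed neighbour of Grb10 that encodes dopa decarboxylase, had 70 counts (19.3 CPM) in wild-type replicate 1, 2 and 1 counts in the other wild-type libraries and 0 in the 4 Smchd1 null libraries. H19 and Igf2, the classic maternal and paternal pair, were also highest in wild-type replicate 1, at 6 and 4 counts, with at most 2 counts of either in any other library. That line held the fibroblast marker counts given above, and their part in these values was not tested.

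**Figure D4:**
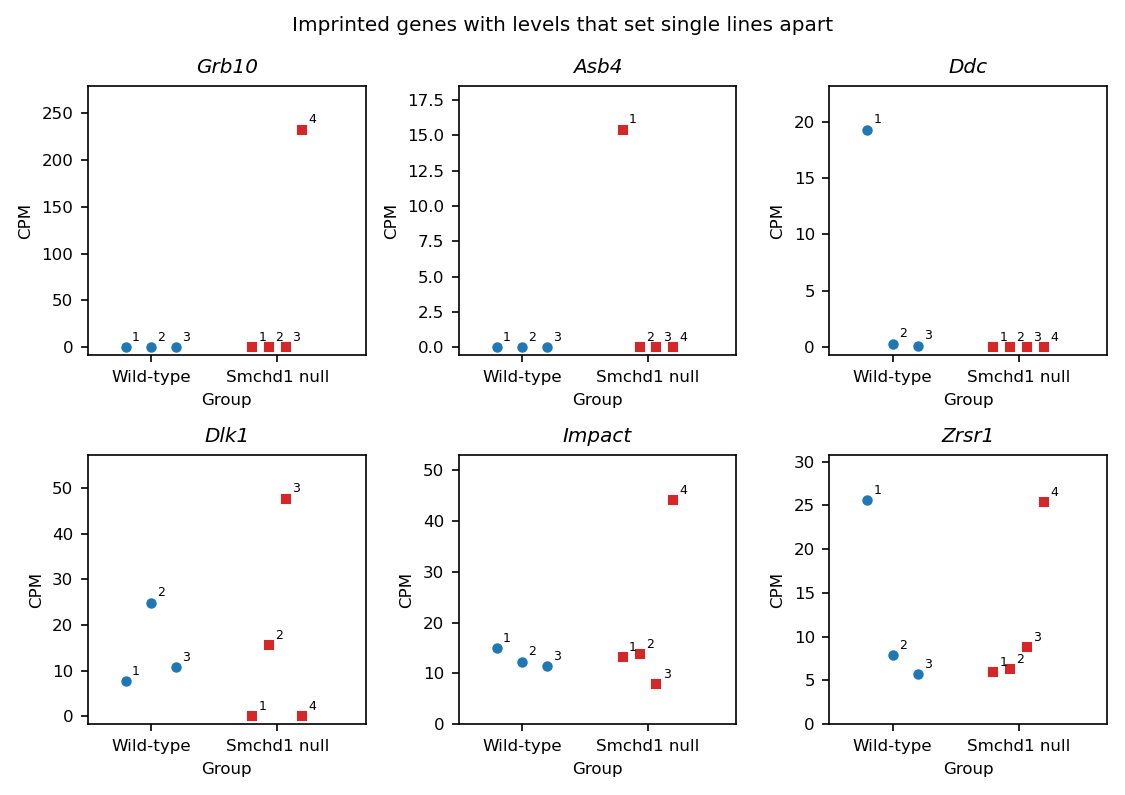
CPM of 6 imprinted genes in each library (points numbered by replicate, wild-type as circles, Smchd1 null as squares). Grb10 and Impact are highest in Smchd1 null replicate 4, Asb4 is seen in Smchd1 null replicate 1, Ddc is highest in wild-type replicate 1, Dlk1 is at 0 in Smchd1 null replicates 1 and 4, and Zrsr1 is high in wild-type replicate 1 and Smchd1 null replicate 4.

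The other genes that did not pass the filter had few counts. Sfmbt2, a Polycomb-related gene, had 3 counts in Smchd1 null replicate 3 and at most 1 elsewhere. Rasgrf1, a Ras exchange factor, had at most 2 counts, and the zinc finger gene Plagl1 and Nap1l5 had at most 1. Of the 13 genes with counts that did not pass, 5 reached 3 counts in no library.

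Genes next to the imprinted clusters were called about as often as other genes. Of 169 tested neighbours 11 rose and 6 fell, 10.1% against 11.9% of all genes. No neighbour was called at 10 of the 21 loci. Around Gnas, the protease Ctsz rose from 93.7 to 114 CPM in wild-type lines to 146 to 202 CPM in Smchd1 null lines (log2 fold change 0.89, limma FDR 0.00951), and Npepl1 rose from 52.9 to 64.5 CPM to 94.4 to 129 CPM (log2 fold change 0.77, limma FDR 0.0121). Near Mcts2, Pdrg1 was called as higher (limma FDR 0.0349) although wild-type replicate 1 had its highest level, 93.5 CPM. Near Grb10, the lymphoid transcription factor Ikzf1 rose (log2 fold change 0.60, limma FDR 0.0335), with overlapping ranges of 395 to 650 CPM in wild-type and 540.5 to 754 CPM in Smchd1 null lines.

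Neighbours that fell were found at the Plagl1, Zrsr1, Rasgrf1 and Sfmbt2 loci as well as beside Begain. Near Plagl1, the peroxisomal gene Pex3 fell from 23.2 to 29.0 CPM in wild-type lines to 14.8 to 18.0 CPM in Smchd1 null lines (log2 fold change -0.84, limma FDR 0.0114), and the fucosidase gene Fuca2 was called as lower (log2 fold change -1.71, limma FDR 0.0155) although wild-type replicate 1 was lowest of all at 9.37 CPM. Near Zrsr1, Tmem17 was at 1.15 to 1.65 CPM in wild-type lines and at most 0.463 CPM in Smchd1 null lines (limma FDR 0.0333). Beside Rasgrf1, Tbc1d2b fell from 1.47 to 2.46 CPM to 0.309 to 0.444 CPM (limma FDR 0.0325), while Tmed3 rose from 9.35 to 19.6 CPM to 20.3 to 39.6 CPM (limma FDR 0.0145). Tmem17 and Tbc1d2b were at or under the limit of 3 counts in every Smchd1 null library. Near Sfmbt2, Itih5 fell from 23.7 to 53.9 CPM to 3.69 to 22.9 CPM (log2 fold change -2.54, limma FDR 0.0172).

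Genes that keep imprints in place were expressed in all lines apart from Zfp57 and Dppa3, which had 0 counts in every library. The other 9 of the 11 in the list were tested. In limma 0 were called, against 11.9% of all genes, with 1 at an unadjusted p under 0.05. EdgeR and DESeq2 also called 0, each with 2 at an unadjusted p under 0.05. These called 0.0975% and 3.10% of all genes, so that 0 of 9 lies near each of these shares. Trim28, the corepressor, was at 709 to 820 CPM, and the maintenance methyltransferase Dnmt1 at 479 to 694 CPM. Hells, a remodelling helicase needed for DNA methylation, came nearest, at 374, 313 and 287 CPM in wild-type lines and 200.1, 188, 292 and 143 CPM in Smchd1 null lines (limma FDR 0.0535). Its lowest wild-type and highest Smchd1 null levels overlapped.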

How the data were processed

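Total RNA from 7 lymphoma lines was made into TruSeq v2 libraries, which do not mark strand, and sequenced on an Illumina HiSeq. As the labels and the paper's methods describe, reads were demultiplexed with CASAVA (version 1.8.2), aligned to mm10 with Subread and summarised with featureCounts. The authors deposited raw counts per Entrez gene, with gene length and no normalisation. The strand and multi-mapping settings were not given in the sources used here. Symbols and coordinates came from RefSeq (GRCm38.p6), which matched 25275 of 27179 genes and 98.2% of counts. CPM and RPKM were computed from the counts, total counts (3626853 to 7519549) and gene lengths.

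A gene was kept if it reached 0.5 CPM in at least 3 samples, which left 12303. Counts were TMM normalised, and models were fitted with limma 3.58.1 under R 4.3.3, using voomWithQualityWeights with 1 variance factor per sample, lmFit and eBayes. FDRs were computed over all genes tested by the Benjamini-Hochberg method, with a threshold of 0.05. Alternatives used edgeR (version 4.0.16), DESeq2 (version 1.42.0), other weights, filters and omitted samples. The fits were tested on simulated data. Fold changes are given for called genes and for tested genes whose groups did not overlap. The tested gene with the highest RPKM of its cluster is given by its levels, the others by range, and the called neighbours and imprint maintenance genes are named, except that the values of 1 called neighbour and 1 marker gene are not reported here. The imprinted genes and gene lists were chosen with earlier results of these data known. Replicate numbers did not pair the samples.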

Additional observations from a re-analysis of the deposited data

Results flagged for a closer look

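Levels of the imprinted genes in the 4 Smchd1 null lines were screened for a line standing alone, judged by how far its value lay from the nearest line relative to the range of all 4. The screen covered 24 genes and flagged 5. Its cutoff flags about 1 in 20 by chance only if levels follow a normal distribution, which was not shown for CPM. A gene seen in only 1 of the 4 lines, as Grb10 and Asb4 were, is flagged whatever its level. The flags are therefore a description, and their number cannot be set against chance. The 3 wild-type lines were too few to screen. Smchd1 null replicate 4 stood apart for Grb10 at 232.6 CPM against 0 in the others, for Impact at 44.2 CPM against 7.88 to 13.8 CPM, and for Zrsr1 at 25.4 CPM against 5.92 to 8.80 CPM. Smchd1 null replicate 1 stood apart for Asb4 at 15.4 CPM against 0. Smchd1 null replicate 3 stood apart for Peg10 at 3.24 CPM against 0.296 to 0.665 CPM.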

How the results depend on the processing

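The main test called 3 imprinted genes, 17 neighbours of the clusters and 0 imprint maintenance genes, with 1466 genes called in all. Voom alone gave 0, 0 and 0 of these (12 in all), edgeR 0, 0 and 0 (12), sample removal 1, 4 and 0 (521), and voom with block weights 2, 7 and 0 (493). DESeq2 gave 3, 7 and 0 (382). With wild-type replicates 2 and 3 summed, no imprinted gene, neighbour or maintenance gene was called (1 gene in all, with 2 imprinted genes and 13 neighbours at an unadjusted p under 0.05). For neighbours, voom alone and edgeR left 15 and 19 at an unadjusted p under 0.05. With no low-count filter 5 imprinted genes were called, among them Peg3 and Peg10, which had counts in Smchd1 null lines only. With an FDR threshold of 0.1 there were 5 imprinted genes, 38 neighbours and 1 maintenance gene (Hells). The filter of 10 counts in every sample retained 14 imprinted genes and called 4 of them and 1 maintenance gene (Hells). Leaving out each sample in turn gave 0 to 4 imprinted genes, 0 to 20 neighbours and 0 to 1 maintenance genes, with the values of 0 for imprinted genes and neighbours when wild-type replicate 2 or 3 was left out. With a replicate block, which 3 numbers allow, 1 imprinted gene (Peg3) and 3 neighbours were called. Deviations from the group means correlated at -0.154, 0.224 and -0.206 for equal numbers, and not every sample correlated best with its own number.

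Begain passed in 12 of 18 alternatives (log2 fold change -2.10 to -1.53) and Chrac1 in 11 of 18 (0.55 to 0.71). Pon2 passed in 7 of 18 (0.41 to 0.81) and Igf2r in 2 of 18 (-0.99 to -0.41), and none of these genes reversed. Peg3 passed in 4 of 17. It had 0 counts in every wild-type library and passed the filter only through Smchd1 null lines, so that its sign was fixed. Peg3 could not be fitted with the filter of 10 counts. The median log2 fold change over the 20 imprinted genes ranged from -0.02 to 0.13. Normalisation by RLE, batch as a covariate and TMM-scaled levels moved no call or separation of an imprinted gene. Wild-type replicate 1 was the only library of batch 1, so that the batch covariate takes it out of the comparison. That fit nearly repeats the fit without this line, and both are counted among the alternatives. The cause of the differences between alternatives was not tested. At these depths genes under about 3 counts could not be compared.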

Other observations

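Setdb1, the histone methyltransferase of the imprint maintenance list, was at 1360 CPM in wild-type replicate 1 and at 152 to 266 CPM in the other 6 lines. It was singled out after its values were seen, and it was not called between the groups (limma FDR 0.181). Ms4a1, which encodes the B cell antigen CD20, was at 12.8 CPM in Smchd1 null replicate 3 and at most 0.798 CPM elsewhere. Dlk1 and Peg10 were also highest in that line.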
